A study of Homo sapiens with 2 samples.

Results

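Collagen, integrin and laminin genes were examined for sites occupied by mTOR, a kinase that adjusts growth to nutrients and growth factors. The genes were chosen by type and symbol alone: protein-coding, with a collagen chain symbol (COL, a number, A and a number), a symbol that begins with ITGA or with ITGB and a digit, or a laminin chain symbol (LAMA, LAMB or LAMC and a digit). Of the 11390 genes named in the peak table, 47 met this rule, with 89 of the 21440 peaks. The gene annotation holds 85 protein-coding genes with such symbols, 44 of collagens, 26 of integrins, 12 of laminins and 3 of proteins named for binding integrins (ITGB1BP1, ITGB1BP2 and ITGB3BP). The other 38 genes were the nearest gene of no peak.

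The peaks come from chromatin immunoprecipitation and sequencing (ChIP-seq) with an antibody against mTOR in MDA-MB-231, an established mesenchymal cell line from a human breast cancer of the triple-negative type, grown in serum with antibiotics. The groups were a single mTOR ChIP library and a single library of input chromatin from the same cells, and the input served as the background for peak calling. Neither library has a replicate and both come from this single cell line, so no test between samples was possible, and genes and peaks are not replicates of each other. Clopper-Pearson intervals (exact, 95%) given below cover counting error only, and the sequencing depth is unknown because the list carries no read counts. Each peak was assigned by the authors to the gene with the nearest transcription start site, and its score was deposited without a stated scale. Over the whole list it ran from 13 to 5636 with a median of 61, and it serves only to rank peaks. A peak list says nothing of expression, so the mesenchymal label of the line was not checked.

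Collagens are triple helices that form the fibrils, networks and filaments of the extracellular matrix, and laminins are trimers of an alpha, a beta and a gamma chain that build the basement membrane under epithelia. Integrins are receptors of an alpha and a beta subunit that bind these proteins outside the cell and link to the actin cytoskeleton, or to keratin filaments in hemidesmosomes, inside it. In breast tissue the luminal and myoepithelial cells rest on a laminin and type IV collagen membrane. mTOR signalling is known to receive input from integrin adhesion through focal adhesion kinase and AKT.

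Promoters that lay under a peak are shown first, to let the sequence be read beside the values. The sequences below, from RefSeq (GRCh38.p14), lay wholly under a peak and are printed 5′ to 3′ in the direction of the named gene, which is the minus strand in each case. They are the 250 bases upstream of the start of LAMB2 (chr3:49133051-49133300) and of ITGB3BP (chr1:63523226-63523475), the promoters with the highest scores here, and the 84 bases between the starts of ITGB1BP1 and of its divergent neighbour CPSF3 (chr2:9423570-9423653). Capitals mark matches, on either strand, to a GC box (GGGCGG), to the ETS core CCGGAAG or to TCCCAG.
LAMB2: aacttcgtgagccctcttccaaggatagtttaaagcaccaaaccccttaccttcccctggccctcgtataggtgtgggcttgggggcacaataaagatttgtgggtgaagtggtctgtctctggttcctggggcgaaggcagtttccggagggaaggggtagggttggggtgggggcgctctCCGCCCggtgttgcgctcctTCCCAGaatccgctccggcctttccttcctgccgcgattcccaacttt
ITGB3BP: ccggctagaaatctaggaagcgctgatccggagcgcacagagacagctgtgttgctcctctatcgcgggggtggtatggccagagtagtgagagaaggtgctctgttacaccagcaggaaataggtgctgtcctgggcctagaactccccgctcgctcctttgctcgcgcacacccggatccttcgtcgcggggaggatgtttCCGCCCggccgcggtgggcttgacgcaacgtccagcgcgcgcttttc
ITGB1BP1: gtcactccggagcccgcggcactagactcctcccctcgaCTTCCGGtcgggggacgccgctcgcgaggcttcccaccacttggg
GC content was 58.4% for LAMB2, 62% for ITGB3BP and 71.4% for the shorter ITGB1BP1 stretch, with 12, 23 and 10 CpG dinucleotides. The ITGB3BP peak also covered the region up to the start of EFCAB7, which begins 300 bp away on the other strand, and CPSF3 begins 85 bp from the nearer of the ITGB1BP1 starts. Each peak counted for 1 gene only, so the neighbour of a divergent pair received no peak from it.

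In the 250 bases upstream of the start, 81 promoters of 61 of the 85 genes were searched on both strands beside all 22132 protein-coding promoters of that table. The element shared by RONIN (THAP11), the zinc finger protein in the title of the series, and ZNF143 was searched as ACTACA, any 2 bases and TCCC, and was found in 0 of the 81, against 2.27% of all promoters. TCCCAG, which overlaps its right-hand end, was found in 28.4% against 30.1%, and among promoters under a peak only in that of LAMB2. The GC box was found in 51.9% against 53.7%, CCGGAAG in 6.17% against 10.7%, the E-box CACGTG in 1.23% against 7.37% and the TATA box TATAAA in 12.3% against 9.0%. Some genes contribute more than 1 promoter, and a match describes these letters only. No promoter sequence was used here for ITGAL, ITGB2, ITGB3 and ITGB4. Of the 61 genes, 7 had a peak within 1 kb of a start in this table, and all 7 peaks were assigned to the same gene, so no peak at these starts was assigned to a neighbouring gene.

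Of the 11 genes with a start-site peak, 5 were beta integrin genes and 1 was a collagen gene. Such a peak, overlapping 1 kb either side of the assigned start, was thus found in 12.9% of the 85 genes (6.64 to 22%), where 15.5% of all 19974 protein-coding genes had one. Integrins had 6 of 26 (23.1%, 8.97 to 43.6%), laminins 2 of 12 (16.7%, 2.09 to 48.4%), the integrin-binding proteins 2 of 3 and collagens 1 of 44 (2.27%, 0.0575 to 12%). Within the integrins, 5 of the 8 beta subunits and 1 of the 18 alpha subunits had such a peak. These counts follow the deposited assignment: a peak of score 37 in the promoter-TSS class lay in ITGA7, 128 bp from an end of its span, and was assigned to BLOC1S1-RDH5. The differences between families were not tested, because genes of 1 library are not replicates. Gene length moved with them: 26 of the 44 collagen genes span over 100 kb, and 0 of the 39 members of that length had a start-site peak, whereas other protein-coding genes had one in 17.3% of those of 100 to 200 kb and 12% of the longer ones. Of the shorter collagen genes, 0 of 2 under 20 kb, 0 of 10 from 20 to 50 kb and 1 of 6 from 50 to 100 kb had one. Integrins in these classes had 0 of 3, 2 of 7 and 4 of 9, and other protein-coding genes 13.7%, 17.9% and 17.8%. The part of length in the family difference was not tested.

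**Figure D1:**
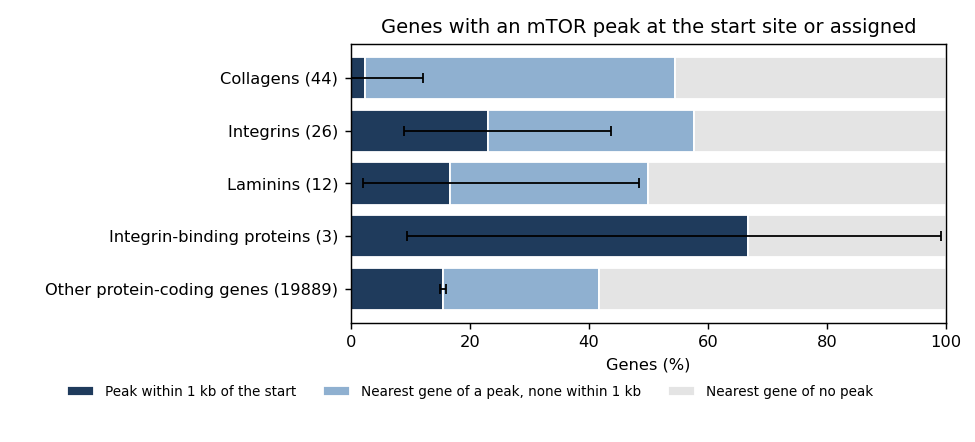
Share of genes (%) with a peak within 1 kb of the start, named as nearest gene without such a peak, or named for no peak, by family, with the number of genes in brackets; the black line is the exact 95% interval of the first share. Collagens had 1 of 44 genes in the first class and integrins 6 of 26, while the share named as nearest gene was 54.5% and 57.7%.

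The 11 start-site peaks had scores from 21 to 260, with the integrins between 21 and 82 and the other genes between 30 and 260. ITGB3BP, which encodes the centromere protein CENP-R and takes its symbol from binding the beta 3 tail, had 260 (chromosome 1, 63523101 to 63523531, centred 43 bp upstream of the assigned start). LAMB2, the laminin beta 2 chain of vascular, neuromuscular and kidney basement membranes, had 151 (chromosome 3, 49132987 to 49133818, centred 352 bp upstream). ITGB3, the beta subunit of the vitronectin receptor, had 82 (chromosome 17, 47253482 to 47254527), with its centre 162 bp inside the gene in intron 1 and over a CpG island. These and LAMA5 were the 4 of the 11 with a score at or above 61, the median of the list.

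LAMA5, the laminin alpha 5 chain of mature epithelial basement membranes, had 76 at 1242 bp upstream of its start, a peak that reached the 1 kb window only by its width of 614 bp and was deposited as intergenic. ITGAL, the alpha subunit of the leukocyte integrin LFA-1, had 45 at 343 bp upstream. ITGB4, the beta subunit of the hemidesmosome receptor for laminin, had 40 at 167 bp upstream. COL5A3, a minor fibrillar chain and the only collagen with such a peak, had 37 at 864 bp inside the gene in intron 1. ITGB1BP1, whose product ICAP-1 binds the beta 1 tail and restrains its activation, had 30 at 20 bp inside the gene, and ITGB8, which with ITGAV activates latent TGF-beta, had 30 at 431 bp in the first exon. ITGB2, the shared beta subunit of leukocyte integrins, had 23 at 985 bp. The lowest of the 11 was ITGB1, the beta 1 subunit that pairs with most alpha chains of epithelial and mesenchymal cells, with 21 (chromosome 10, 32957832 to 32958239, centred 141 bp upstream of the assigned start). The median over the 6 integrin start-site peaks was 35, below the 61 of the whole list and the 54 of start-site peaks at other protein-coding genes.

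**Figure D2:**
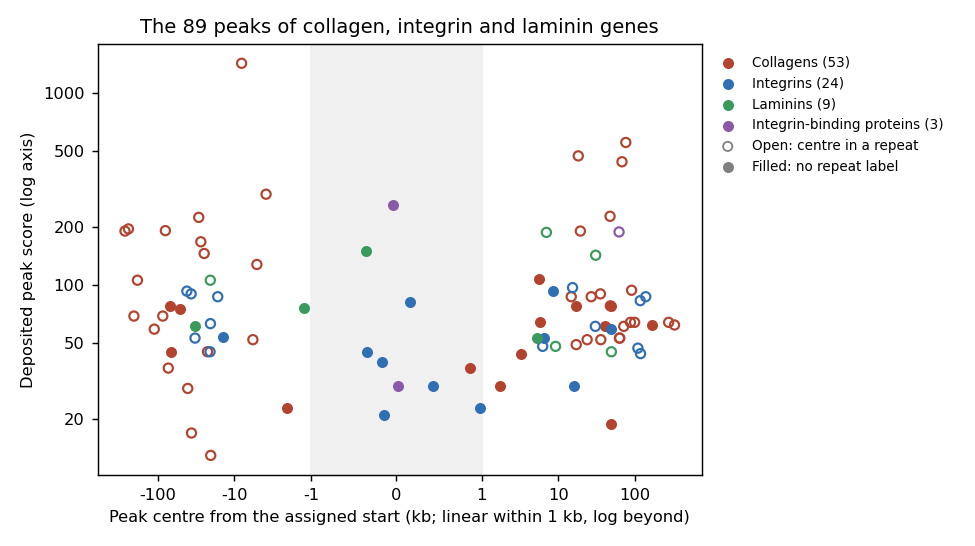
Deposited score (log axis) of each of the 89 peaks against the distance of its centre from the assigned start (kb, linear within 1 kb and log beyond), coloured by family; open points lie in a repeat and filled points do not, and the grey band marks 1 kb either side. No repeat lies in the band, integrin points stay at or below 97, and the high open points up to 1425 are collagen peaks away from starts; the LAMA5 peak lies just left of the band.

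Away from the starts, collagens held the strongest peaks of the 3 families. Of the 12 highest peaks, 11 belonged to collagens, which had 53 of the 89 peaks. All 11 had their centre in a repeat, where 79.5% of intronic and 82.2% of intergenic peaks of other protein-coding genes away from starts did. Those shares cover peaks of all scores, and the share among equally high peaks of other genes was not computed. The highest, 1425 and rank 31 of the 21440, lay in an L1ME1 element 8040 bp upstream of COL17A1, a transmembrane collagen of hemidesmosomes (chromosome 10, 104093353 to 104094487, deposited as intergenic). COL21A1, a fibril-associated (FACIT) collagen, had 552 in intron 3 over L1MB1 (chromosome 6, 56171982 to 56172656). COL13A1, a transmembrane collagen of cell-matrix junctions, had 470 in intron 1 over L2a (chromosome 10, 69819676 to 69820311). COL15A1 had 438 in intron 9 over the retroviral MER4-int (chromosome 9, 99010431 to 99011657), and COL18A1, the precursor of endostatin, had 297 over L1MEc at 3860 bp upstream. These are both basement membrane zone collagens of the multiplexin type.

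The remaining collagen peaks among the 12 highest were those of COL26A1 at 228, COL5A1 at 225, COL8A1 at 196, COL24A1 at 192, and COL12A1 and COL22A1 at 191 each. Collagen peaks had a median score of 69 (quartiles 52 and 128, 53 peaks), laminin peaks 76 (53 and 143, 9 peaks), integrin peaks 53.5 (44.75 and 84, 24 peaks) and peaks of other protein-coding genes 60 (37 and 102, 15408 peaks). Of the collagen peaks 7 were among the 2144 highest of the list (13.2%, 5.48 to 25.3%), of the integrin and laminin peaks 0, and of all peaks of protein-coding genes 9.94%. The highest integrin peak, 97, lay in intron 1 of ITGB3 over THE1C-int, 15247 bp from the start, and the highest laminin peak, 188, in intron 1 of LAMC3 over L1MB3.

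By location, 46 of the 89 peaks were deposited as intronic (51.7%, 40.8 to 62.4%), 36 as intergenic (40.4%, 30.2 to 51.4%), 6 as promoter-TSS (6.74%, 2.51 to 14.1%) and 1 in a 5′ untranslated region. Over all protein-coding genes these classes held 38.8%, 39% and 16% of peaks for introns, intergenic sequence and promoters. Collagens had 26 intronic, 27 intergenic and 0 promoter-TSS peaks, for which the exact interval reaches 6.72%. Integrins had 14, 6 and 3, and laminins 5, 3 and 1. First introns held 17 of the 46 intronic peaks, in 10 genes, 3 each in COL13A1 and COL26A1. The median distance from the start was 40.5 kb for collagens, 16.1 kb for integrins and 9.15 kb for laminins, and 17.1 kb for other protein-coding genes. More than 50 kb away lay 22 of the 53 collagen peaks, 4 of the 24 integrin peaks and 0 of the 9 laminin peaks (41.5%, 16.7% and 0%), where 25.1% of the peaks of other protein-coding genes did.

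Among fibrillar collagens, peaks were assigned to genes of the type V, XI and XXIV chains and none to the type I and III chains. Of the 11 fibrillar genes 5 (45.5%) were named for a peak, where 41.7% of all protein-coding genes were. The 5 were COL24A1 with 8 peaks, COL5A1 with 5, COL11A1 with 3, COL5A3 with 2 and COL5A2 with 1. COL24A1 had 4 peaks upstream, at 5733 to 79141 bp with scores of 52, 146, 75 and 192 by rising distance, and 4 in its introns with 52, 52, 53 and 62. L1 elements lay under 6 of these 8, of the L1PA and HAL1 groups. COL5A1, a chain that sets the width of type I fibrils, had its 5 peaks upstream, at 27319 to 68571 bp with scores of 168, 225, 29, 45 and 78 by rising distance. COL1A1, COL1A2 and COL3A1 were the nearest gene of no peak, and the closest peak lay 19.2 kb, 66.8 kb and 218 kb outside their spans. These genes are short, with spans of 17.5, 36.3 and 38.4 kb. Of the named genes COL5A3 spans 50.9 kb, COL5A1 203 kb, COL11A1 232 kb, COL5A2 409 kb and COL24A1 428 kb. The part of length in this difference was not tested. The second peak of COL5A3 had 44, also in intron 1. The COL5A2 peak had 59, 110405 bp upstream of the assigned start but inside the RefSeq span of the gene.

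Type IV collagens, the network of the basement membrane, had 1 peak among 6 genes. It lay in intron 20 of COL4A4 over LTR8A with a score of 61. Over all protein-coding genes 41.7% were named for a peak, and the subgroups here hold few genes. COL4A1 and COL4A2, a pair read in opposite directions from a shared promoter, were the nearest gene of no peak, and COL4A2 held a peak of score 37 in intron 4 that was assigned to MIR8073. COL4A3 had its closest peak 7.75 kb away, and COL4A5 and COL4A6 on the X chromosome had theirs 621 kb and 336 kb away. Beaded filament collagens of type VI, which surround cells in most tissues, had 7 peaks at 4 of 5 genes with scores of 17 to 87. COL6A1 had 23 at 2070 bp upstream and 87 and 78 beyond the gene at 26700 and 47913 bp, COL6A2 had 17 and 78, COL6A5 53 and COL6A6 78, and COL6A3 had none.

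FACIT collagens, which decorate fibrils, had 10 peaks at 6 of 10 genes, where 41.7% of all protein-coding genes were named for a peak. COL21A1 held 5 of them, with 87, 61 and 64 beside the 552 already given and 69 at a site 85535 bp upstream, deposited in an intron of a neighbouring gene. COL12A1 had 191 over L1PA13 in intron 8, COL22A1 191 at 265738 bp upstream over MER61E, COL20A1 64, COL9A2 30 over a CpG island at 1755 bp, and COL9A1 13, the lowest score of the list. COL13A1 had 108, 49 and 94 beside its 470, COL23A1 128 over L1MEc at 5085 bp upstream, and COL28A1 64. COL8A1, a network collagen of vessel walls, had 4 peaks, all upstream at 22362 to 239638 bp and all in repeats, with 45, 37, 106 and 196 by rising distance. COL26A1 had 90, 228 and 19 in intron 1.

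Integrin alpha subunits carried peaks mainly in introns. Of the 18 alpha genes 9 were named for a peak, where 41.7% of all protein-coding genes were. Laminin-binding ITGA3, whose pairing with beta 1 is the main laminin receptor of many epithelial cells, had 48 over a MIR element in intron 1, 6220 bp from the start. ITGA6, the partner of ITGB4 in hemidesmosomes, was named for no peak, and the closest lay 5.20 kb outside the gene. Collagen-binding ITGA2 had 30 and 61 in intron 1 and ITGA11 59 in intron 2. ITGAV, the alpha chain of the vitronectin receptors, had 45 over L1PA10 at 20711 bp upstream, and ITGA8 87 over L1ME1 in intron 22. ITGA5, the fibronectin receptor chain, had no peak within 206 kb. ITGA9 had 47, 83 and 44, all in intron 15 and all in L1 or MaLR repeats, and ITGAD 53 in intron 5.

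Beta subunit genes had peaks both at and around their starts. ITGB1 had 4, the start-site peak of 21 and 3 upstream at 20486, 36545 and 41543 bp with 63, 90 and 93, each in an L1PA element. ITGB3 also had 4, with 54 and 87 at 13925 and 16450 bp upstream beside the 82 and 97 already given. ITGB5, another partner of ITGAV, had 93 in intron 1 at 8354 bp. The 7 beta subunit peaks away from starts had a median score of 90. ITGB6 and ITGB7 were named for none. Genes of the integrin-binding proteins had a further peak in an intron of ITGB3BP, with 189 over L1MB4, and ITGB1BP2, a muscle protein gene on the X chromosome, had none.

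Laminin chains had 9 peaks at 6 of 12 genes, in each of the alpha, beta and gamma groups. The share named over all protein-coding genes was 41.7%. Alpha chains had 3, the pair of LAMA5 peaks (76 upstream and 53 in intron 2) and 143 in intron 2 of LAMA3 over L2a, the alpha 3 chain being that of laminin-332 in hemidesmosomes. LAMB3, a beta chain, was named for no peak. Gamma chains had 4: LAMC1, the gamma 1 chain of most laminin trimers, had 61 at 32863 bp upstream and 48 over AluJb in intron 1, and LAMC3 had 188 in intron 1 and 106 at 20559 bp upstream, both in L1 elements. LAMB4 had 45 over LTR16A1, beside the LAMB2 peak. LAMB1, the beta 1 chain that pairs with LAMC1, had none, and neither had LAMA1, LAMA2 and LAMA4.

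**Figure D3:**
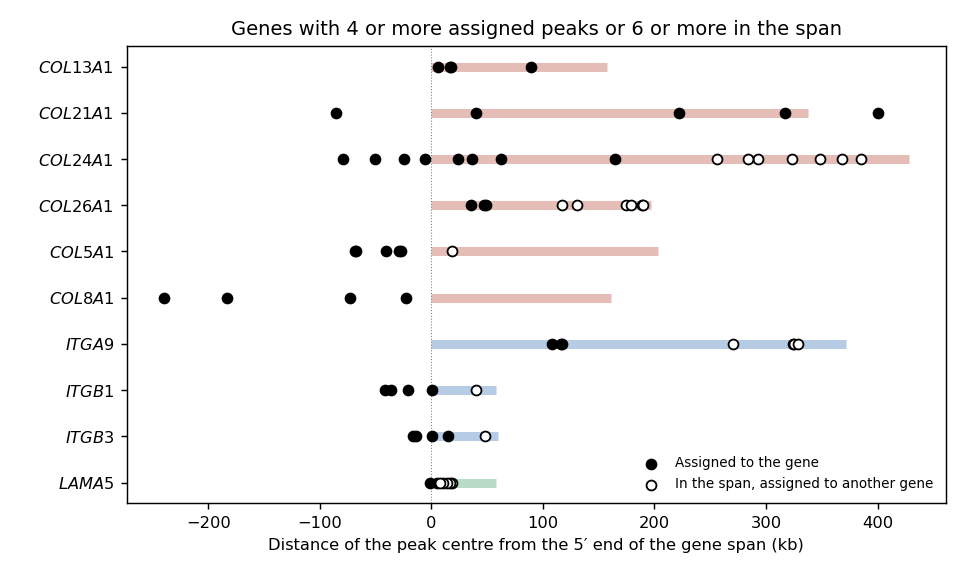
Peak centres (kb from the 5′ end of the gene span) at the genes with 4 or more assigned peaks or 6 or more in the span; bars are gene spans coloured by family, black points are peaks assigned to the gene and white points are peaks in the span assigned to another gene. COL8A1 and COL5A1 have their assigned peaks upstream, while COL24A1, COL26A1, ITGA9 and LAMA5 hold 11, 9, 7 and 6 peaks inside, of which 7, 6, 4 and 5 were assigned elsewhere.

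Some peaks inside these genes were assigned to another gene with a nearer start. Of the 85 spans 47 (55.3%, 44.1 to 66.1%) overlapped a peak, where 33% of all protein-coding genes did. A longer span can overlap more peaks, and these genes are long. By length the shares were 28.6% against 18.7% of other protein-coding genes under 20 kb and 47.4% against 33.4% from 20 to 50 kb. They were 50% against 43.1% from 50 to 100 kb, 71.4% against 56.3% from 100 to 200 kb and 61.1% against 69.7% above. The count of 47 equals that of the named genes, but the genes differ. There were 8 named genes with no peak in the span and 8 genes with one that were not named. The spans held 95 peaks, 51 assigned to the same gene and 44 to another, 25 of these to genes that are not protein-coding. The same split was not computed for the spans of other protein-coding genes, so these counts have no background and describe these spans only. LAMA5 held 6 peaks in 58.2 kb, of which 5 with scores of 23 to 93 were assigned to its antisense gene LAMA5-AS1, and its 10.3 peaks per 100 kb were the most of the 85 genes. COL24A1 held 11 in 428 kb, 7 of them assigned to ZNHIT6 (45 to 160), and COL26A1 held 9 in 197 kb, 6 of them assigned to LINC01007 (21 to 532). ITGA9 held 7, of which 4 were assigned to ITGA9-AS1 (14 to 30). COL18A1 held 3 assigned elsewhere (30 to 118), and ITGB1 held a peak of score 78 over L1PA5 assigned to SNORA86. The peak named for ITGAX lay in the span of its neighbour ITGAM, and those in ITGA1, ITGAE, ITGA7, COL27A1 and COL8A2 were all assigned to other genes.

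Of the 85 genes 55.3% (44.1 to 66.1%) were named as nearest gene, where 41.7% of all protein-coding genes were. The genes are long, with a median span of 88.4 kb against 24.1 kb for other protein-coding genes. Within length classes the shares named were 28.6% against 31.4% under 20 kb (7 genes), 47.4% against 43.0% from 20 to 50 kb (19 genes), 55% against 50.4% from 50 to 100 kb (20 genes), 66.7% against 57.3% from 100 to 200 kb (21 genes) and 61.1% against 63.1% above (18 genes). Per Mb of span there were 8.59 peaks against 8.76, with 12.4 in integrins, 7.47 in collagens and 7.19 in laminins. These rates pool genes of all lengths, and longer classes had fewer peaks per Mb. Within the classes the rates were 19.6 against 26.8, 16.3 against 14.4, 14.2 against 9.92, 9.83 against 8.14 and 5.51 against 4.84, by rising length. The part of length in the differences between families was not tested. Across the 85 genes, which share 1 library and are not replicates, Spearman's rho between span and peaks in the span was 0.25 (0.37 over the other protein-coding genes).

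**Figure D4:**
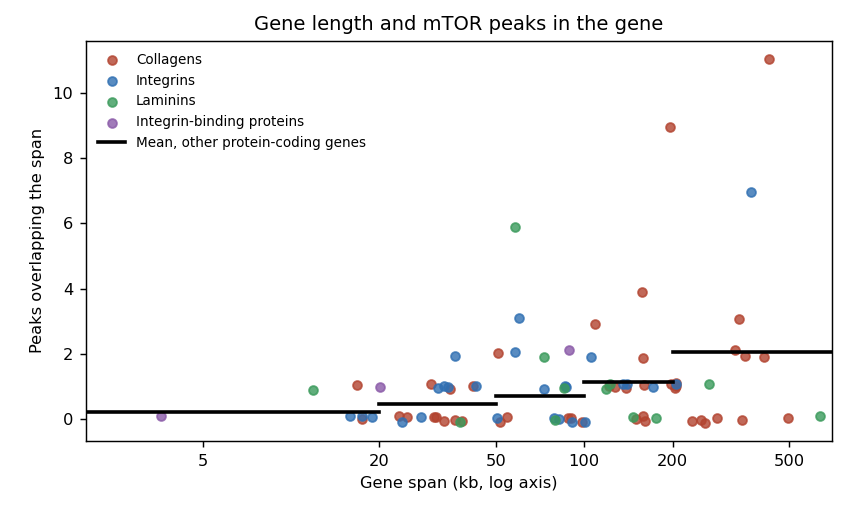
Peaks overlapping the span of each of the 85 genes against its length (kb, log axis), coloured by family and shifted slightly up or down so that points do not hide each other; black lines are the means of other protein-coding genes in 5 length classes. Most genes lie at 0 to 2 peaks, and COL24A1 with 11, COL26A1 with 9, ITGA9 with 7 and LAMA5 with 6 stand above the line of their class.

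Repeats lay under 58 of the 89 peak centres (65.2%, 54.3 to 75%), where 60.8% of peaks of all protein-coding genes had a repeat label. Collagens had 39 of 53 (73.6%, 59.7 to 84.7%), integrins 13 of 24 (54.2%, 32.8 to 74.4%) and laminins 5 of 9. Of the 11 start-site peaks 0 had one (interval to 28.5%), against 3.54% at the starts of other protein-coding genes. Of the other intronic peaks 30 of 43 had one (69.8%, against 79.5%) and of the other intergenic peaks 28 of 35 (80%, against 82.2%). L1 retrotransposons held 35 peaks in 21 genes (39.3%, 29.1 to 50.3%), where 32.2% of peaks of all protein-coding genes lay in L1. Primate L1PA elements held 17 of these, led by L1PA4 with 5 and L1PA13 with 4, and the older L1M groups held 16. Median scores were 53 for the L1PA peaks and 117 for the L1M peaks, against 52 and 69 in the same groups at other protein-coding genes. LTR elements held 16 peaks (18.0%, against 16.8% at other protein-coding genes), 8 of them of the ERVL-MaLR family and 5 of ERV1. SINEs held 4 (4.49%, against 6.26%). Peaks in repeats had a median score of 80.5 and those without a repeat label 54, against 61 and 54 at other protein-coding genes. The sources used here do not say how reads that align to several places were treated, and the part of this in the repeat peaks was not tested.

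**Figure D5:**
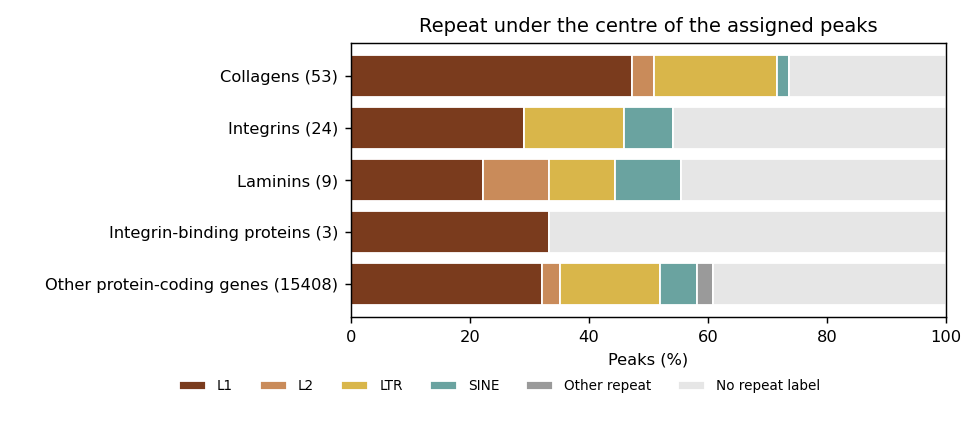
Share of assigned peaks (%) by the repeat under the peak centre, for each family and for other protein-coding genes, with the number of peaks in brackets. L1 elements held 47.2% of collagen peaks and 29.2% of integrin peaks, against 32.1% at other protein-coding genes.

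Genes that act on these proteins were counted in the same way, from lists chosen for their roles with earlier results of these data known. Collagen-processing enzymes, which hydroxylate, fold, trim and cross-link the chains, had a start-site peak in 10 of 28 (35.7%). LOXL4, a lysyl oxidase that cross-links collagen, had 439, COLGALT1, which adds galactose to collagen in the endoplasmic reticulum, had 229, and ADAMTS14, a procollagen protease, had 91. Focal adhesion proteins, which link integrin tails to actin, had 4 of 32 (12.5%), with VCL (vinculin) at 95, GIT1 at 69 and TNS3 at 20. Other matrix glycoproteins had 3 of 26 (11.5%), with FBN1 (fibrillin 1) at 66, TNXB at 60 and MATN2 at 59. Matrix proteases and their inhibitors had 3 of 27 (11.1%), with MMP15 at 85, MMP28 at 45 and MMP17 at 24. The share over all protein-coding genes was the 15.5% given above, and these differences were not tested.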

How the data were processed

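Chromatin of MDA-MB-231 cells enriched with an mTOR antibody, and input chromatin, were each sequenced as 1 library. Per the submitters' processing notes, which give no settings, the build was hg38 and the tools were HOMER 4.11.1, MACS2 2.1.1.20160309, Picard 2.0.1, BWA 0.7.12 and Trimmomatic 0.36. The peak score is used as deposited by the authors, a whole number without a stated scale, and positions, classes, repeat labels and distances to the start are those the authors deposited. The sources used here do not give the peak threshold or the treatment of duplicate reads.

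A start-site peak overlapped 1 kb either side of the assigned start, by its deposited distance and its width. Gene spans and promoters came from RefSeq tables of GRCh38.p14, a later patch of the assembly called hg38, and 99.7% of peaks had their gene in them. A peak lay in a span when it overlapped it by 1 bp. Shares have exact Clopper-Pearson 95% intervals, and no test was made. Every member may be named; full values are given for start-site peaks, the 12 highest peaks, genes with 4 or more peaks and 12 preset genes. Some values of a member are not reported here. The members, lists and measures were chosen with earlier results of these data known. Counting was tested on simulated peaks. Software was matplotlib 3.10.9, scipy 1.17.1, numpy 2.4.6 and pandas 2.3.3 under Python 3.11.15.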

Additional observations from a re-analysis of the deposited data

How the results depend on the processing

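The 11 genes with a start-site peak became 6 with windows of 100 bp, 6 with the deposited promoter class, 4 among the 10720 highest-scoring peaks and 1 (ITGB3BP) among the 2144 highest, where all protein-coding genes had 10.9%, 12%, 7.45% and 1.57%. Narrower windows and fewer peaks lower this count by construction. With windows of 5 kb there were 15, where all protein-coding genes had 20.3%, and collagens had 5 of 44 and integrins 6 of 26. Collagens had 0 of 44 in the other 4 settings named. In those settings, in the order given, integrins had 3, 3, 1 and 0 of 26. The 47 genes named as nearest gene became 31 among the 10720 highest peaks, 8 among the 2144 highest and 25 without repeat-labelled peaks, fewer by construction because fewer peaks were used. The share of peaks with a repeat label moved to 87.5% among the 2144 highest (8 peaks, 47.3 to 99.7%). This value lies above the interval of all member peaks (54.3 to 75%), while its own wide interval holds their 65.2%. The median score was 54 without repeat-labelled peaks, against 64 with all. The shares in introns, in intergenic sequence and at promoters stayed within their intervals in all 4 settings run for each. No paired analysis was possible because each group is 1 library without a replicate. The peak list gives no depth, so a gene without a peak may lie below the calling threshold, which the sources used here do not give.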

Other observations

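The share of members named as nearest gene differed between chromosomes, in groups too small to be read as a pattern. On chromosome 21 all 4 (COL6A1, COL6A2, COL18A1 and ITGB2) were named, with 7 peaks, where 27.6% of the protein-coding genes of that chromosome were. On chromosome 10 all 4 (COL13A1, COL17A1, ITGA8 and ITGB1) were, with 10 peaks, where 54.8% of its genes were. On chromosome 12 none of 4 (COL2A1, ITGA5, ITGA7 and ITGB7) was named, where 44.7% were, on chromosome 13 neither of the type IV pair (30.8%), and on X none of 3 (10.4%). Over all chromosomes 41.7% were named.

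Of the 38 genes named for no peak, 30 also had none in the span, and the closest peak lay a median of 60.0 kb outside it. The range ran from 0.724 kb for COL11A2, beside a peak of score 40 assigned to HCG24, to 621 kb for COL4A5. LAMA4, with 513 kb, and LAMA2, with 234 kb, were the laminin genes farthest from any peak.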
